A study of Homo sapiens with 14 samples.

Results

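The epithelial-mesenchymal transition is run by a small set of transcription factors, and the peaks of GATA3 around the 9 genes ZEB1, ZEB2, SNAI1, SNAI2, TWIST1, TWIST2, GRHL2, OVOL1 and OVOL2 are described here. Peaks from chromatin immunoprecipitation with sequencing (ChIP-seq) in 12 libraries were merged wherever they overlapped by at least 1 bp, which gave 78999 regions. A region belonged to a gene when it overlapped the gene's hg38 span extended by 50 kb on either side. By that rule the 9 genes had 58 regions, and no region was counted for more than 1 gene. The rule uses positions and not the scores or the groups of the calls.

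ZEB1 and ZEB2 are zinc-finger homeobox repressors, SNAI1 (SNAIL) and SNAI2 (SLUG) are zinc-finger repressors, and TWIST1 and TWIST2 are basic helix-loop-helix factors. These factors lower epithelial genes such as the cadherin gene CDH1 as cells turn mesenchymal. GRHL2, a grainyhead factor, and the zinc-finger factors OVOL1 and OVOL2 act the other way: they keep the epithelial state and hold ZEB1 down, while ZEB1 in turn represses GRHL2. GATA3 is a zinc-finger factor of luminal breast epithelium, a tissue in which its loss is linked to a mesenchymal, invasive state.

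All libraries came from MDA-MB-231, a mesenchymal cell line derived from a triple-negative breast cancer, harvested without treatment on day 3. The 6 groups carried wildtype GATA3 (WT), GATA3 with the point change A442M or GATA3 with G444E, each either untagged or with FLAG on the C-terminal end (WT-FLAG, A442M-FLAG and G444E-FLAG), and each had 2 libraries. According to the series' design text, the tag keeps GATA3 protein stable with or without a mutation. The same GATA3 antibody was used in every group. The labels name no promoter for the GATA3 constructs and do not say whether a group is 1 clone or whether the 2 libraries of a group are separate cultures. The spread that the p-values measure is between libraries and may be technical. Empty-vector cells (2 samples) were not analysed here, and the regions carry no background measured without GATA3. Peak lists hold neither expression nor sequence, so the cell type, the level of GATA3 and the point changes could not be checked against them.

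The lists held 25248 to 51694 peaks, with mean widths of 354 to 569 bp, and the reads behind them are unknown. Untagged WT and A442M libraries had 57 to 110 peaks on unplaced contigs, and the 8 other libraries had 14 to 24. Any contrast that crosses these 2 sets of libraries cannot be told apart from a batch. The pooled contrasts below (FLAG against untagged, mutant against wildtype, A442M against the other genotypes) each cross them in part.

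No library had a peak over an annotated start of ZEB1, ZEB2 or TWIST2. RefSeq promoter windows of GRCh38.p14, which run from 250 bases before to 50 after a transcript start, were at hand for these 3 members and numbered 9: 7 for ZEB1, 1 for ZEB2 and 1 for TWIST2. Of all 35116 windows in that table, 12.4% were overlapped by a region. The ZEB2 window (chr2:144520070-144520369, minus strand) and the first ZEB1 window (chr10:31318167-31318466, plus strand) are shown because they are the starts of the genes with the most regions and yet lay 8316 bp and 35166 bp from the nearest one. Each is written 5′ to 3′ on the strand of the gene. Capitals mark the GATA core motif (AGATAA or otherwise AGATAG or otherwise TGATAA or otherwise TGATAG, on either strand) and the E-box CAGGTG that ZEB and SNAIL factors bind (either strand). Each of the 2 windows held 1 such match, so none overlapped another.
ZEB2: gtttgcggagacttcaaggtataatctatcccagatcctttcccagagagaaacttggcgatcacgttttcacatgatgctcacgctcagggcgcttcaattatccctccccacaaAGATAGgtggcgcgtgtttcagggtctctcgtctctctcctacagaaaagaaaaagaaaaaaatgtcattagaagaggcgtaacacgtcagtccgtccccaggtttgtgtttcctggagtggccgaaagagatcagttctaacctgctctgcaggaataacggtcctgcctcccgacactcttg
ZEB1: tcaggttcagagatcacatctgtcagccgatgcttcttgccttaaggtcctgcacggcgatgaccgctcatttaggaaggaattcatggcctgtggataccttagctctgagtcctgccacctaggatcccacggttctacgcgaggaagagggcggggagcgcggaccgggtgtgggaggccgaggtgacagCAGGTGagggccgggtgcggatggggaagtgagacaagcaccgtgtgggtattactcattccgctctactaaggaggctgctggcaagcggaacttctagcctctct
The GATA core motif occurred once in the ZEB2 window and in none of the 7 ZEB1 windows or the TWIST2 window, and 25% of all windows held it. CAGGTG occurred once in the first ZEB1 window and 3 times in the third, and 20.6% of all windows held it. These matches are letters in a window and not measured sites. Of the 43 member regions on chromosomes that the table covers, 0 overlapped a window in it, against 4.55% of all such regions. The table has no window for SNAI1, TWIST1 or OVOL1, whose regions are among the 43. A region over one of their starts could therefore not be counted, and the shares are not strictly comparable.

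Of the members with more than 1 region, ZEB1 and ZEB2 had most of theirs inside the gene and the others had most or all of theirs outside it. In all, 22 of the 58 overlapped a member's span and 36 lay outside, with widths whose median was 435 bp (449 bp over all regions). ZEB2 had the most, 13, of which 9 were within the gene, and ZEB1 had 11, of which 9 were within it. SNAI1 had 9, SNAI2 6 and TWIST1 6, and none of these overlapped the genes themselves. GRHL2 had 9, OVOL1 3, TWIST2 1 and OVOL2 0. Per 100 kb of window, SNAI1 had 8.50 regions, SNAI2 5.78, TWIST1 5.74, ZEB2 5.51, ZEB1 3.53, GRHL2 3.12, OVOL1 2.72 and TWIST2 0.616, against a median of 3.06 over 20033 protein-coding genes. SNAI1 thus had more regions per length than 92.8% of genes, and TWIST2 more than 13.6%.

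**Figure D1:**
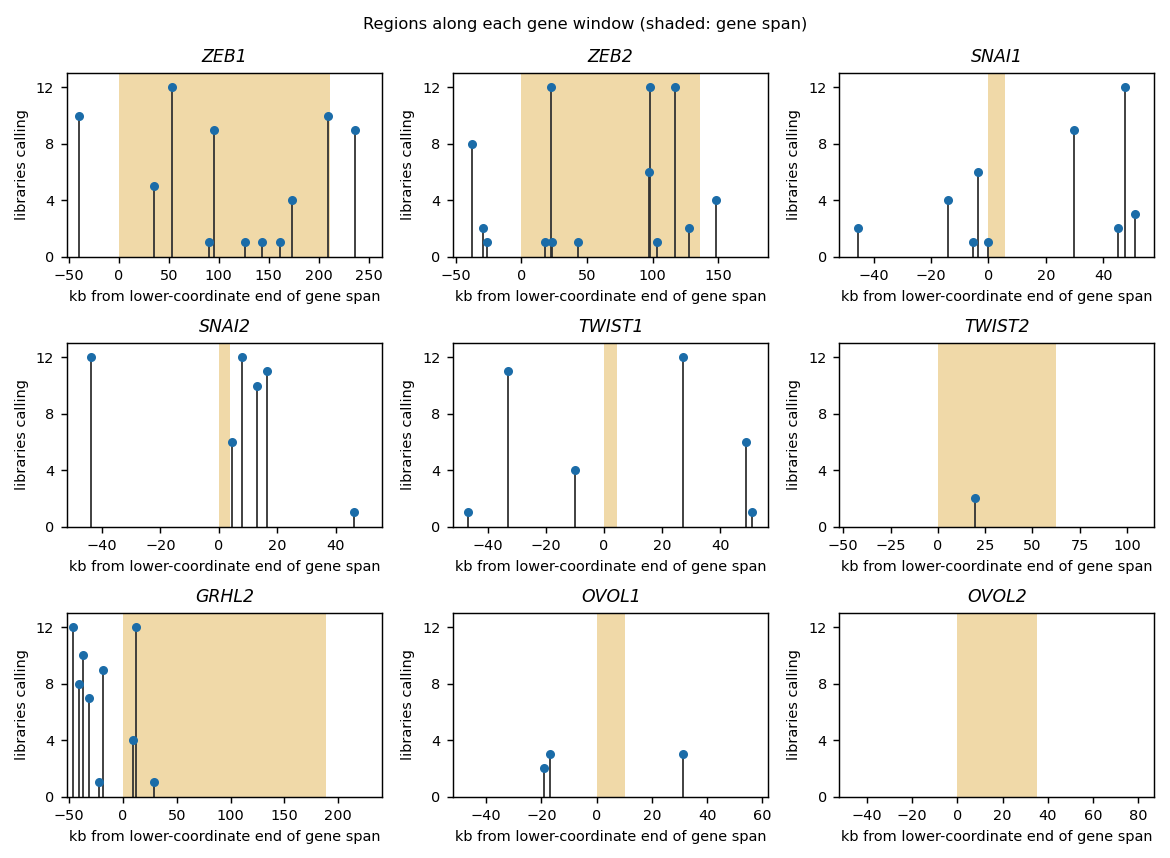
Position of the 58 regions in the 9 windows. The horizontal axis gives kb from the lower-coordinate end of the gene span (shaded), the vertical axis how many of the 12 libraries called the region, and each point is 1 region. The 9 GRHL2 regions sit at the left side of the window, OVOL2 has none, and the ZEB2 regions called by 12 libraries lie within the gene.

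All 12 libraries called 10 of the 58 (17.2%), beside 13.8% of all regions. A region seen by 1 library only was also common, 16 of 58 (27.6%, and 23.5% over all regions). Of the 9 genes, 6 had a region called in all 12 libraries, as did 40.6% of protein-coding genes, whose windows differ in length. The score that the authors deposited for each peak was turned into a percentile within its own list, 100 being the highest. For the regions shared by all 12 libraries the median of these percentiles was 89.2 for the members and 79.2 over the genome.

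ZEB2 had 3 of the 10 shared regions, more than any other member. Its strongest (chromosome 2, 144481458 to 144482479, region 9) lay inside the gene, 37.6 kb from the nearer end of its span. It held percentiles of 99.0 and 97.8 in WT, 99.2 and 97.5 in A442M, 98.5 and 97.6 in G444E, 98.0 and 98.3 in WT-FLAG, 98.5 and 97.8 in A442M-FLAG, and 99.1 and 97.2 in G444E-FLAG (replicates 1 and 2). It was thus among the top 3% of peaks in every list. A second (144405872 to 144406838, region 5), also inside ZEB2, had percentiles of 69.5 and 82.6 in WT and 88.1 to 98.7 in the other 10 libraries. The third (144500293 to 144501506, region 11), 18.6 kb inside the gene from the end that holds its start, stood at 6.19 and 22.9 in WT, 75.4 and 73.4 in A442M, 80.8 and 78.9 in G444E, and 76.7 to 95.1 in the tagged libraries. It was low in both untagged WT lists and in no other, and it was called in 11 libraries when the lists were made equally long or when a score of at least 10 was required. Percentiles from lists of different length show no change in signal, so these values are a description.

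ZEB1 had 1 region in all 12 libraries and several strong ones that some libraries lacked. The shared region (chromosome 10, 31370794 to 31371561) lay 52.4 kb inside the gene, with percentiles of 62.9 and 50.6 in WT, 87.5 and 77.3 in A442M, 94.6 and 83.2 in G444E, and 84.7 to 95.7 in the tagged libraries. A region 39.3 kb below the gene (31278445 to 31279135, region 1) was called in every library except both untagged WT ones, with percentiles of 30.8 to 88.6, and the same 10 libraries called it in lists of equal length. Regions 5 (31413360 to 31413756) and 11 (31554592 to 31554924), named after their values were seen, had percentiles of 70.5 to 82.6 and 75.1 to 91.0. Each was called in 9 libraries, in all 6 of replicate 1 and in 3 of replicate 2. Neither WT-FLAG replicate 2 nor A442M-FLAG replicate 2 had a peak in them, although both untagged WT libraries did.

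SNAI2 had 2 of the 10 shared regions. One (chromosome 8, 48925179 to 48926033, region 3) lay 3.75 kb above the gene, with percentiles of 84.6 to 95.9 and a median of 92.0. The other (48873170 to 48874486) lay 43.1 kb below it, at 82.5 to 95.3. A further region, 48921928 to 48922323, began 499 bp above the upper end of the span and was called in 6 libraries. Its percentiles were 72.4 and 36.1 in WT, 41.2 and 25.6 in A442M, and 38.5 and 18.2 in WT-FLAG, and it was missing from both G444E libraries and from all 4 libraries of A442M-FLAG and G444E-FLAG. In lists of equal length it was left in 3 libraries, both of WT and 1 of A442M. This region and region 3 also overlap LOC107986942, a long non-coding RNA gene beside SNAI2.

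SNAI1 had 1 shared region, 50029930 to 50031085 on chromosome 20, which lay 41.0 kb above the gene, overlapping the non-coding RNA gene SCREEM1, with percentiles of 58.2 to 88.3. Region 2 (49968875 to 49969198), 13.8 kb below the gene, was called in both untagged WT and both A442M libraries, with percentiles of 82.4, 79.0, 78.0 and 74.4, and in none of the other 8. Its calls in lists of equal length were the same 4. Those 4 libraries are the ones with more peaks on unplaced contigs, so this pattern cannot be told apart from a batch. Regions called in all 4 of these libraries and nowhere else made up 0.818% of all regions and 1.72% of the members (1 of 58). The peak closest to SNAI1, 115 bp below the lower end of its span, came from WT-FLAG replicate 1 alone, at percentile 4.98.

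TWIST1 had 1 shared region, 22.1 kb above the gene (chromosome 7, 19139732 to 19140662), with percentiles of 68.8 to 96.3. A broad region 32.5 kb below the gene (19079061 to 19080578, named after its values were seen) was called in 11 libraries. Its percentiles were 10.5 in WT replicate 1, none in WT replicate 2, 71.5 and 34.3 in A442M, 61.2 and 15.9 in G444E, 82.4 and 71.2 in WT-FLAG, 94.3 and 91.8 in A442M-FLAG and 64.7 and 31.5 in G444E-FLAG. TWIST2, its close relative, had a single weak region within the gene (chromosome 2, 238867361 to 238867680), called in replicate 1 of WT-FLAG and of G444E-FLAG at percentiles of 8.29 and 2.57.

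The 3 epithelial factors differed widely from one another. GRHL2 had 9 regions, of which 6 lay below the gene and 3 within the first part of its span, and the remaining 209238 bp of the window held none. Both shared regions were at that side: 101504041 to 101504944 on chromosome 8, 11.6 kb inside the gene, with percentiles of 72.5 to 83.1, and 101445567 to 101446564, 45.9 kb below it, at 22.7 to 77.0. A region 36.9 kb below the gene (101454987 to 101455517) was called in the 10 libraries other than untagged WT. OVOL1 had 3 regions, none of them in more than 3 libraries. The one with the highest percentiles (chromosome 11, 65769866 to 65770086), 17.0 kb below the gene, was called in replicate 1 of all 3 tagged groups, at 80.5, 80.7 and 79.4, and in no other library. The region 65767714 to 65768155 was called in both WT-FLAG libraries alone, at 8.20 and 6.97. OVOL2 (chromosome 20, 18024152 to 18059188) had no peak within 50 kb in any list.

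**Figure D2:**
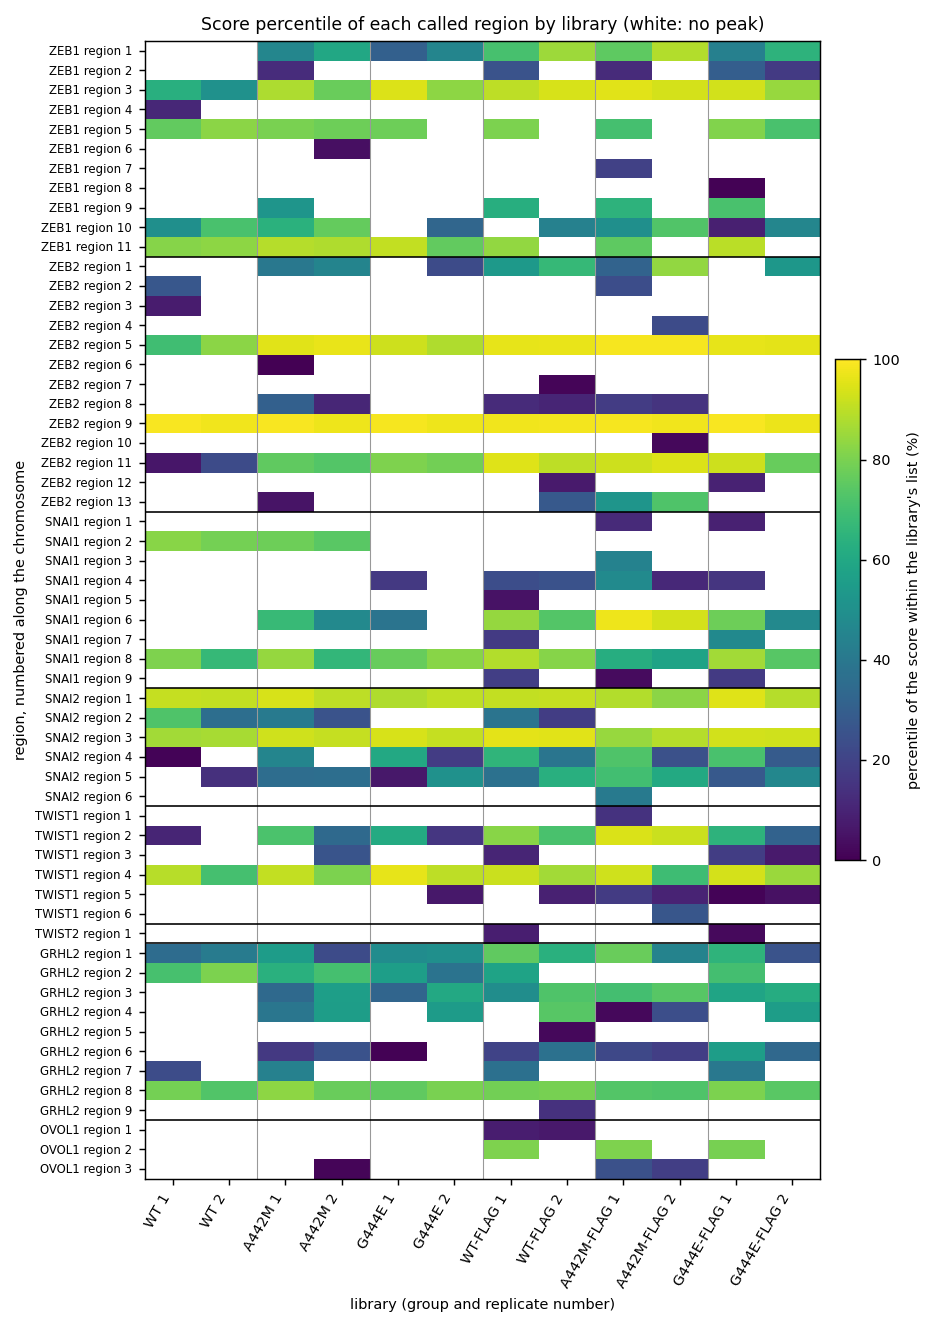
Each row is 1 of the 58 regions and each column 1 library, and the colour gives the percentile of the score within that library's list, from 0 to 100, with white where no peak was called. The rows of ZEB2 region 9 and SNAI2 regions 1 and 3 are bright across all 12 columns, while SNAI1 region 2 is filled in the first 4 columns only.

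Regions of several genes were split by replicate number. Called in at least 3 libraries of replicate 1 and in none of replicate 2 were 4 of the 58, 1 each at ZEB1, SNAI1, GRHL2 and OVOL1. That is 6.90%, against 5.09% of all regions. The opposite split was found at 0 member regions and at 1.69% of all regions. At ZEB1 it was region 9 (31491181 to 31491430), with percentiles of 52 in A442M, 62.7 in WT-FLAG, 64.6 in A442M-FLAG and 71.2 in G444E-FLAG. Replicate 1 lists were the longer ones in every group, and the part of list length in this split was not tested.

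The number of member regions called by a library went with the length of its list. It was 22 and 17 in WT, 31 and 28 in A442M, 21 and 21 in G444E, 34 and 30 in WT-FLAG, 37 and 28 in A442M-FLAG, and 34 and 24 in G444E-FLAG (replicates 1 and 2). The group means were 19.5 ± 3.54 for WT, 29.5 ± 2.12 for A442M, 21 ± 0 for G444E, 32 ± 2.83 for WT-FLAG, 32.5 ± 6.36 for A442M-FLAG and 29 ± 7.07 for G444E-FLAG (SD, n = 2 each). Untagged WT and G444E were low, and the other groups overlapped. As a share, a library called 29.3% to 63.8% of the member regions and 31.1% to 63.5% of all regions. The member share minus the share of all regions ran from -5.3 points in A442M-FLAG replicate 2 to 9.3 points in G444E-FLAG replicate 1, and was above 0 in 9 of 12 libraries.

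**Figure D3:**
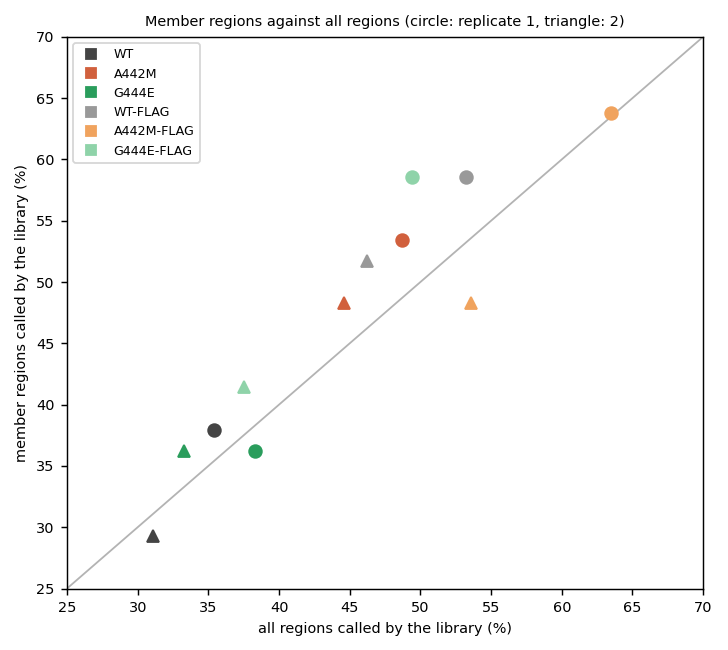
Each point is 1 library, with the percent of all 78999 regions it called on the horizontal axis and the percent of the 58 member regions on the vertical axis. The line marks equal shares, and the 12 libraries lie within -5.3 and 9.3 points of it.

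Whether the tag goes with more GATA3 regions around a gene was asked with the number of its regions called per library. Tag labels were permuted within genotype (exact permutation test, two-sided, 216 arrangements), with Benjamini-Hochberg adjustment over the 17718 protein-coding genes with any region. All 8 members with a region had a higher mean in FLAG libraries, as had 77.7% of all genes, and the median difference was 0.833 regions over the members and 0.667 over all genes. Each FLAG list was longer than the untagged list of the same genotype and replicate number. In lists of equal length 4 members were higher (ZEB2, TWIST1, GRHL2 and OVOL1), ZEB1 was lower, SNAI1 and SNAI2 were equal and TWIST2 had no region left. Of all genes 49.4% were then higher and 39.0% lower, and the part of list length in this tally was not tested. None of the 8 passed, and 0% of all genes did. The smallest p that this exact permutation test can give is 0.00926. A gene could therefore pass only if many genes reached that value together. Unadjusted, 1 member and 3497 genes (19.7%) had p under 0.05, and with labels exchanged only within replicate number 0 genes passed and 1840 had an unadjusted p under 0.05.

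TWIST1 was that member. It had 2 and 1 regions in WT, 2 and 3 in A442M, 2 and 3 in G444E, 3 and 3 in WT-FLAG, and 4 in each of the 4 libraries of A442M-FLAG and G444E-FLAG. The tagged libraries lay at or above the highest untagged ones, and the values met at 3. The mean was 1.5 regions higher with the tag (3.67 against 2.17, exact permutation p = 0.00926, the smallest the permutation can give; adjusted p = 0.174). Lists of equal length left 2 regions in each of the 6 tagged libraries and 1 to 3 in the untagged ones, a difference of 0.167.

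SNAI1 had 2 and 2 regions in WT, 3 and 3 in A442M, 3 and 1 in G444E, 6 and 3 in WT-FLAG, 6 and 3 in A442M-FLAG, and 6 and 2 in G444E-FLAG. Replicate 1 of every tagged group was high and replicate 2 was within the untagged range (mean difference 2, exact permutation p = 0.111, adjusted p = 0.305). The difference was 0.667 at a score of at least 10 and 0 in lists of equal length, which left 2 or 3 regions in every tagged library. OVOL1 had 0 regions in 5 of 6 untagged libraries and 1 in A442M replicate 2. With the tag it had 2 and 1 in WT-FLAG, 2 and 1 in A442M-FLAG, and 1 and 0 in G444E-FLAG (mean difference 1, exact permutation p = 0.0556, adjusted p = 0.218), and in lists of equal length the difference was 0.5. SNAI2 kept 4 or 5 regions in every library, a narrower range than any other member with at least 5 regions.

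ZEB2 had the largest difference when A442M was set against the other genotypes. It had 5 and 3 regions in WT, 7 and 5 in A442M, 3 and 4 in G444E, 5 and 8 in WT-FLAG, 7 and 8 in A442M-FLAG, and 4 and 4 in G444E-FLAG. Untagged A442M and untagged G444E lie on opposite sides of the divide in peaks on unplaced contigs. A442M libraries were above those of G444E in both tag states and overlapped those of WT. The mean was 2.25 regions higher (6.75 against 4.50; exact permutation test within tag state over 225 arrangements, p = 0.0533, adjusted p = 0.393). In lists of equal length the difference was 0.75 (adjusted p = 1 by the same permutation test), and A442M (4 and 4) met G444E (3 and 4), as A442M-FLAG (4 and 5) met G444E-FLAG (3 and 4). In this contrast 7 members had a higher mean in A442M and TWIST2 a lower one. In lists of equal length 4 members were higher, GRHL2 was lower (-0.75), 2 were equal and TWIST2 had no region left. Of all genes, 76.8% were higher (40.5% in lists of equal length, where 48.8% were lower) and 0% passed, with 2252 (12.7%) at an unadjusted p under 0.05 and 2349 under it when exchanged within replicate number, again with 0 past.

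With both mutants set against wildtype, 4 members were higher and 3 lower, and of all genes 63.9% were higher and 26.9% lower. In lists of equal length 5 members, ZEB2 among them, were higher and 0 lower, SNAI2 and OVOL1 were equal and TWIST2 had no region left. Of all genes 47.3% were then higher and 40.9% lower. In the full lists ZEB1, SNAI1, TWIST1 and GRHL2 had a higher mean in the mutants, SNAI2, TWIST2 and OVOL1 a lower one, and ZEB2 was equal at 5.25. TWIST1 differed by 1 region (exact permutation p = 0.0133, adjusted p = 1), and 0% of genes passed, with 404 of 17718 (2.28%) at an unadjusted p under 0.05 (388 within replicate number, 0 past). ZEB1 had 5 and 4 regions in WT, 7 and 6 in A442M, 4 and 4 in G444E, 6 and 3 in WT-FLAG, 8 and 3 in A442M-FLAG, and 8 and 5 in G444E-FLAG. Its replicate 1 and 2 libraries in A442M-FLAG, 8 and 3, were as far apart as any 2 libraries of the 12.

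**Figure D4:**
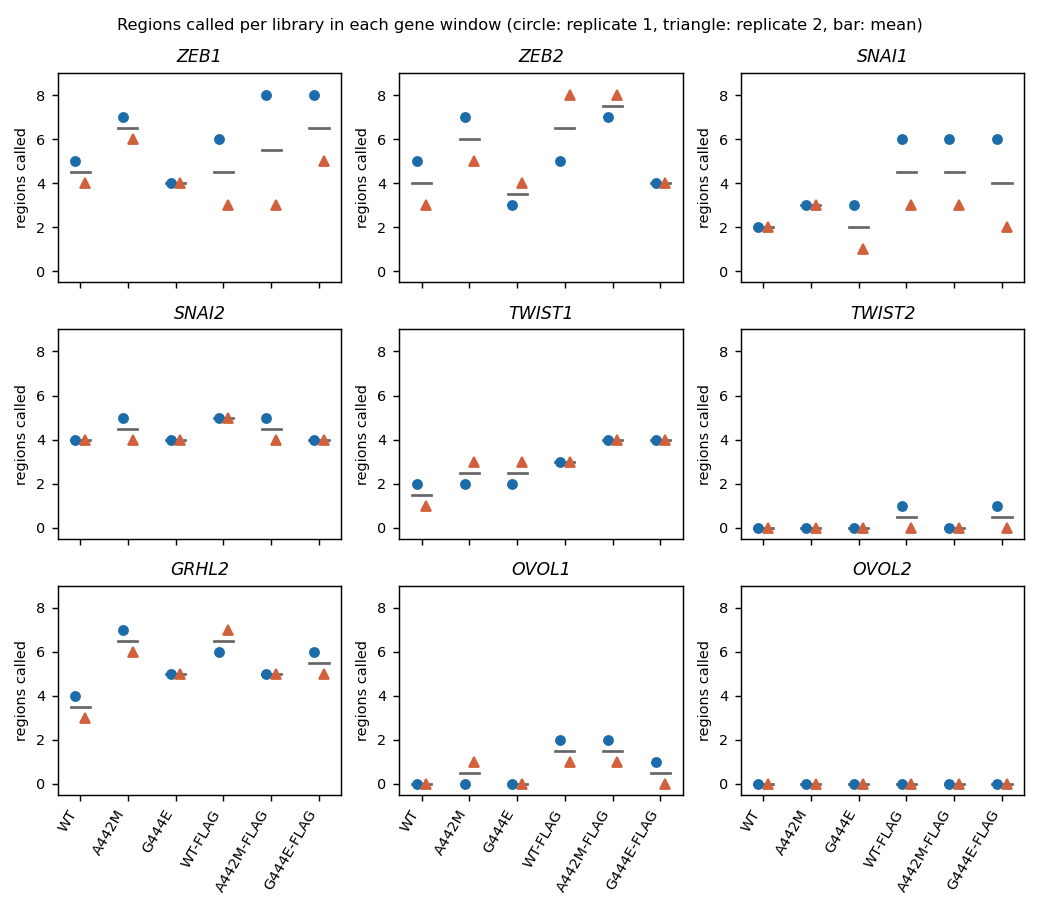
Number of regions called in each gene window (vertical axis) by group (horizontal axis), with a circle for replicate 1, a triangle for replicate 2 and a bar at the mean of both. TWIST1 reaches 4 in all A442M-FLAG and G444E-FLAG libraries, SNAI1 has 6 in replicate 1 of each tagged group, and OVOL2 stays at 0.

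Single regions were compared by Fisher's exact test on calls, two-sided, adjusted over every region with enough calls, and enough missing ones, for the test to reach 0.05. Between 6 FLAG and 6 untagged libraries, 6 member regions could be tested. None passed, with 0 at an unadjusted p under 0.05, against 0 (0%) past of 11777 regions and 1521 (12.9%) at an unadjusted p under 0.05. The smallest adjusted p was 0.365 for a member and 0.104 over all regions. In 8 mutant against 4 wildtype libraries 16 member regions could be tested, and 0 passed or had an unadjusted p under 0.05. Over all 26654 regions the share past was 0%, with 83 at an unadjusted p under 0.05. For 4 A442M against 8 other libraries, Fisher's exact test passed 0 of 16 and 1 had an unadjusted p under 0.05, OVOL1 region 3 (65818112 to 65818434), called in 3 A442M or A442M-FLAG libraries and in no other (p = 0.0182, adjusted p = 0.622). Its percentiles were 1.36 in A442M replicate 2 and 24.9 and 18.4 in A442M-FLAG, and in lists of equal length no library called it. In this contrast too 0% of 26654 regions passed, and 779 had an unadjusted p under 0.05. Permuting calls within replicate number gave 0 regions past in each of the 3 contrasts, with 246, 83 and 779 at an unadjusted p under 0.05.

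Pairs of groups were compared by one-sided regions, those that one group had in both its libraries and the other group had in none. No test was made, since an exact permutation of 2 against 2 libraries cannot reach 0.05. Of the 58 regions, 17 (29.3%) were one-sided in at least 1 of 9 pairs, and so were 32.9% of all regions. The pairs share groups, so they are not independent of each other.

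Untagged A442M had 7 member regions (12.1%) that WT lacked, and WT had 0 that A442M lacked, against 7.02% and 0.689% of all regions. They were ZEB1 region 1, ZEB2 regions 1 and 8, SNAI1 region 6 and GRHL2 regions 3, 4 and 6, so 3 of the 7 lay below GRHL2. ZEB2 region 8 (144480492 to 144481345) was separated by 112 bp from the strong region 9. Its percentiles were 10.3 to 30.5, and in lists of equal length no library called it. SNAI1 region 6 (50012519 to 50013167), 23.6 kb above the gene, had percentiles of 67.2 and 47.1 in A442M, 84.0 and 73.4 in WT-FLAG, 97.6 and 93.4 in A442M-FLAG, 78.0 and 46.9 in G444E-FLAG and 38.4 in G444E replicate 1. It was high in A442M-FLAG and absent from untagged WT and from G444E replicate 2. Untagged G444E had 2 regions that WT lacked, ZEB1 region 1 and GRHL2 region 3 (5.09% of all regions). WT had 2 that G444E lacked, SNAI1 region 2 and SNAI2 region 2 (3.66% of all regions). A442M had 3 that G444E lacked (5.36% of all regions), at ZEB2, SNAI1 and SNAI2, and G444E had 0 (0.892% of all regions).

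The same genotype pairs were compared with the tag. A442M-FLAG had 1 that WT-FLAG lacked, OVOL1 region 3 (5.97% of all regions), and WT-FLAG had 2 the other way, at OVOL1 and SNAI2 (1.58% of all regions). G444E-FLAG had 0 that WT-FLAG lacked (0.465% of all regions), and WT-FLAG had 3 that G444E-FLAG lacked, OVOL1 region 1, ZEB2 region 8 and SNAI2 region 2 (2.19% of all regions). A442M-FLAG had 3 that G444E-FLAG lacked (9% of all regions), and G444E-FLAG had 1 the other way, TWIST1 region 3 (1.12% of all regions). SNAI2 region 2 and OVOL1 region 1 were on the WT-FLAG side against both mutants.

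Between tag states, WT-FLAG had 8 member regions (13.8%) that untagged WT lacked, and untagged WT had 1, SNAI1 region 2, against 12.3% and 3.17% of all regions. The 8 were spread over ZEB1 (1), ZEB2 (2), SNAI1 (2), GRHL2 (2) and OVOL1 (1). A442M-FLAG had 2 that A442M lacked, SNAI1 region 4 and TWIST1 region 5 (3.45%, against 10.8% of all regions). A442M had 3 that A442M-FLAG lacked, SNAI1 region 2, SNAI2 region 2 and GRHL2 region 2 (4.06% of all regions). G444E-FLAG had 2 that G444E lacked, ZEB1 region 2 and TWIST1 region 3 (2.19% of all regions), and G444E had 0 (0.429% of all regions). Regions missing from both untagged WT libraries and called in at least 8 of the others numbered 5 of 58 (8.62%), at ZEB1, ZEB2, SNAI1 and GRHL2, beside 6.37% of all regions. Tagged against untagged WT and tagged against untagged A442M also cross the divide in peaks on unplaced contigs, and so does untagged G444E against WT or A442M.

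**Figure D5:**
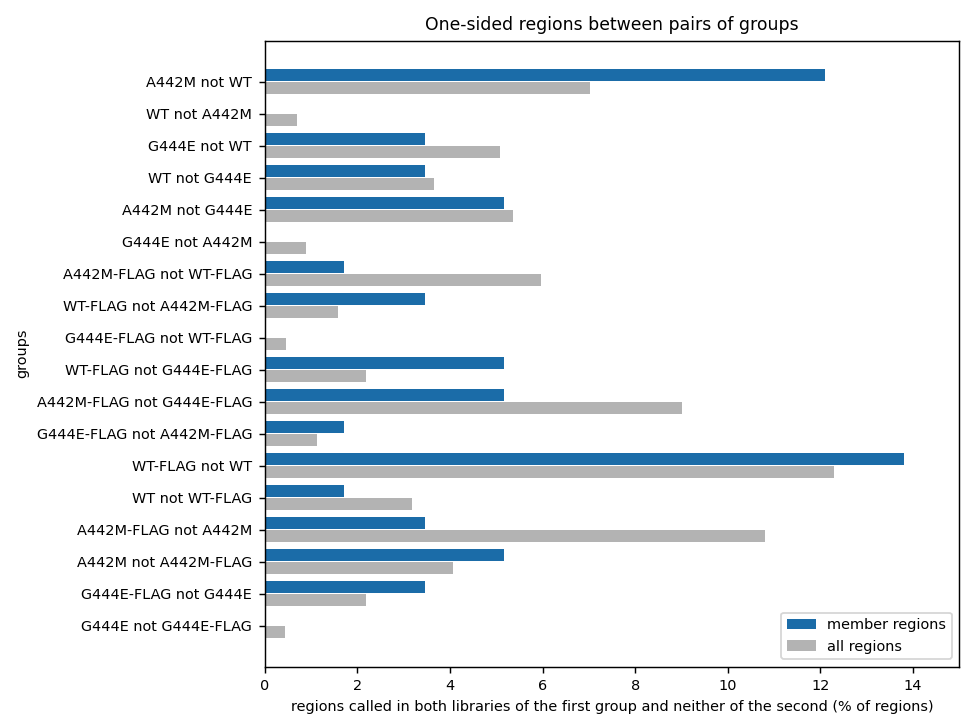
Bars give the percent of the 58 member regions (blue) and of all 78999 regions (grey) called in both libraries of the first group and in neither of the second, for both directions of 9 pairs. The 2 longest member bars, A442M not WT and WT-FLAG not WT, stand for 7 and 8 regions.

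Other genes of the transition were read in the same way, in 5 lists of 54 genes. Of 12 further factors that are relatives of the members or tied to the transition, 11 had a region and 2 had one in all 12 libraries, with a median of 1.83 regions per 100 kb (3.06 over all genes). SOX9, a factor of stem and progenitor cells, had 8 regions with 4 shared, and the grainyhead genes GRHL3 and GRHL1 had 13 and 8 with 0 shared. Of 9 epithelial factors 7 had a region and 3 a shared one, where 40.6% of all genes had a shared one (median 3 per 100 kb). FOXA1, the pioneer factor of luminal cells, and CDX2, both named after their values were seen, had 0 regions. The most were at EHF, an ETS factor of epithelia, with 21 regions and 5 shared. TP63, the basal factor, had 12 with 2 shared, and ELF3 had 11 with 1. Of 12 epithelial targets of these repressors, 7 had a shared region (median 5.07 per 100 kb). Windows of list genes can overlap: the 1 shared region of CLDN3 was also counted for CLDN4. CDH1 had 16 regions with 4 shared, the tight junction gene CLDN4 11 with 4 and CLDN1 10 with 1.

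Mesenchymal targets had the most. Of 12, 8 had a shared region (median 8.22 per 100 kb), with 30 regions and 7 shared at CDH2, the mesenchymal cadherin, and 15 and 5 at the smooth muscle actin gene ACTA2. Of 9 corepressors that ZEB and SNAIL factors recruit, 5 had a shared region (median 3.96 per 100 kb), among them the LIM protein AJUBA with 6 regions and 2 shared and the remodeller SMARCA4 with 8 and 1, while HDAC2 had 11 and 0. Of the 54 genes, 51 had a region and could be tested, and none of these passed the permutation test in any of the 3 contrasts. Their region number was higher in FLAG libraries for 44 (as for 77.7% of all genes) and lower for 6. It was higher in mutants for 37 (as for 63.9% of all genes) and lower for 11, and higher in A442M for 37 (as for 76.8% of all genes) and lower for 6. The lowest adjusted p values of the permutation test were 0.174, 1 and 0.272. In lists of equal length 49.4%, 47.3% and 40.5% of all genes were higher in the 3 contrasts, and the list genes were not tallied there.

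Each member with at least 5 regions was matched to the protein-coding genes whose number of regions per 10000 peaks followed it most closely over the 12 libraries. Nearest to ZEB1 were CEP97 (r = 0.883) and LOC124906262 (r = 0.860), to ZEB2 ATF7IP (0.919) and NRDE2 (0.822), and to SNAI1 ANGPTL8 (0.922) and CXCL11 (0.920). For SNAI2 they were TRIM56 (0.915) and GABPB1 (0.897), for TWIST1 SNRPE and DENND6A (0.907 each), and for GRHL2 DEK (0.871) and GATA3 (0.865). These are Pearson correlations, the highest among 9746 to 9750 genes over libraries that all genes share, and they are a description. Both numbers of a pair were divided by the same list lengths, and the part of that scaling in r was not tested. Before scaling, SNAI2 had 4 or 5 regions in every library and TRIM56 had 6 to 8.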

How the data were processed

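GATA3 ChIP-seq peaks of 12 libraries (6 groups of 2) were used. The tools named were MACS2 2.1.4 and FastQC and the build hg38, per the submitters' processing notes. For aligner, control and filters the sources used here say nothing. Each deposited list holds the peaks of 1 library with positions and the authors' score, whose scale is unnamed and whose minimum is 5. The score served to rank peaks or to filter them inside a list. Depth is unknown, so no counting interval was computed.

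Peaks were merged at 1 bp overlap, and a region counted as called by each library with a peak in it. Genes and promoter windows came from RefSeq tables of GRCh38.p14, and the gene table gives no strand. "Below" and "above" a gene therefore mean toward lower and higher coordinates, distances run to the nearer span end, and exons and introns were not assigned. Positions are 1-based. Calls were compared genome-wide by Fisher's exact test (SciPy 1.17.1) and region numbers per gene by exact permutation, with Benjamini-Hochberg adjustment and a threshold of 0.05. The code of both was run on simulated data with large planted differences. That run does not measure power for differences of the size seen here. Alternatives were a stricter score, equal list lengths, a covered share, other windows, left-out libraries and a replicate block. Replicate numbers were taken to pair libraries from the data, since the labels name no shared batch: the difference between replicate 1 and 2 correlated at 0.113 to 0.290 across regions in 15 pairs of groups. In every group the replicate 1 list was longer and its peaks were narrower on average. The part of this in the correlation was not tested, so a true pairing is not shown.

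Members and lists were chosen with earlier results of these data known. Regions were named when they had the most calls of a gene, were called in all 12 libraries, or were one-sided in at least 3 of 9 pairs. Others are named in describing those comparisons.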

Additional observations from a re-analysis of the deposited data

Results flagged for a closer look

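The number of regions at GRHL2 moved in opposite directions under the same contrast. With the tag it was higher by 3 regions in WT (4 and 3 untagged, 6 and 7 with FLAG) and in A442M it fell by 1.5 (7 and 6 untagged, 5 and 5 with FLAG), and in each genotype the libraries of the 2 tag states did not overlap. Equally, A442M minus WT was 3 without the tag and -1.5 with it. The difference between these effects was not tested, and the share of all genes with such a reversal is not given here. Both tag comparisons cross the divide in peaks on unplaced contigs and cannot be told apart from a batch. In lists of equal length the counts were 4 and 3 in WT, 4 and 5 in WT-FLAG, 5 and 4 in A442M, and 3 and 3 in A442M-FLAG, so the WT libraries then met at 4.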

How the results depend on the processing

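No member region and no member gene passed a test under any alternative run: score of at least 10, equal lists, calls covering 50% of a region, each library left out, windows of 10 or 100 kb (genes only), or the replicate block, which gave 0 past for all 3 contrasts of regions and of genes. Passing was limited by design. With all libraries the exact permutations had 216 or 225 arrangements for genes, and 64 or 81 in the replicate block. So few arrangements keep the smallest p-value high, and it passes adjustment only when many genes or regions reach it together. Fisher's exact test on so few libraries has the same limit. The 0 past under each alternative therefore does not show that the results are stable. The 58 regions became 33 in equal lists and 29 with 10 kb windows, and the 10 shared ones became 3 when a call had to cover 50% of a region and 6 with 10 kb windows. Leaving out a library gave 54 to 58 regions and 10 to 11 shared ones.

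One-sided counts moved in 17 of 72 cases, where only a larger relative change or a change to or from 0 was counted. Smaller changes were left out of that number. WT-FLAG not WT went from 8 to 6 in equal lists, 9 with the score filter and 12 with 50% cover. A442M not WT went from 7 to 5 in equal lists and with 50% cover. The counted cases were these. Equal lists gave G444E not WT 4, A442M not G444E 1, WT-FLAG not A442M-FLAG 0, WT-FLAG not G444E-FLAG 0, A442M-FLAG not G444E-FLAG 1, WT not WT-FLAG 2, A442M-FLAG not A442M 1 and G444E-FLAG not G444E 1. A score of at least 10 gave WT-FLAG not A442M-FLAG 0, WT-FLAG not G444E-FLAG 1, G444E-FLAG not A442M-FLAG 0 and G444E-FLAG not G444E 1. Calls covering 50% gave G444E not WT 4, A442M-FLAG not WT-FLAG 2, G444E-FLAG not WT-FLAG 1, WT not WT-FLAG 2 and A442M-FLAG not A442M 5. Merging peaks within 200 bp, chosen after seeing the data, joined ZEB2 region 8 to region 9 and lowered 5 of these counts by 1. Leaving out a library was not run for them, since 1 library would be left.

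Differences in region number that never passed changed sign in 21 of 423 cases. They were ZEB1 by tag (-0.167, equal lists), SNAI1 by mutation (-0.125, 10 kb), SNAI2 by mutation (0.25, score; 0.375, 50% cover and 100 kb), GRHL2 by mutation (-0.5, 10 kb), OVOL1 by mutation (0.25, score; 0.75, 100 kb), and, for A442M, SNAI2 and TWIST1 (-0.125 each, 10 kb) and GRHL2 (-0.75, equal lists; -0.25, 10 kb). Without single libraries the ranges were -0.333 to 1.33 for ZEB1 by tag, -0.125 to 2.38 for ZEB1 and -0.125 to 1.38 for SNAI1 in A442M, and by mutation -0.625 to 0.875 for SNAI1, -0.375 to 0.125 for TWIST2 and -0.375 to 0.125 for OVOL1. The cause was not tested.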
